A study of Mus musculus with 18 samples.

Results

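The acute phase response is the rapid change in the plasma proteins that the liver secretes during inflammation, and its genes, with the complement and carrier proteins and the IL-6 signalling genes that act with them, were followed here in cultured mouse hepatocytes. The genes were taken as a list of 38: 22 proteins grouped as rising in inflammation, 7 complement proteins, 5 carrier or inhibitor proteins known to fall, and 4 components of IL-6 signalling. The group of 22 is loose: Saa4 is a form expressed without inflammation and Crp a minor reactant in mice. Of these 38 genes 29 were measured, among 15491 genes in all. They comprised 18 of the rising proteins, 5 of the complement proteins (C2, C9, Cfb, Mbl1, Mbl2), 2 of the carriers and inhibitors (Alb, Serpinc1) and all 4 signalling genes (Socs3, Stat3, Il6ra, Il6st). No probe set naming only 1 gene was held for the other 9 (Saa2, Saa3, Orm1, Itih3, C3, C4b, Ttr, Trf, Ahsg), which were not analysed here.

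Hepatocytes were isolated from C57BL/6J mice, and every sample title marks the cells as Wt (wild type), a background that all 6 groups share. They were infected for 48 hours with adenovirus. The virus carried PGC-1a1 or PGC-1a4, or was the vector control with neither. Both proteins are products of the gene of the transcriptional coactivator PGC-1alpha: PGC-1a1 is its canonical long form and PGC-1a4 a truncated one made by alternative splicing. Every virus, the control included, also expressed GFP, so all 6 groups carried virus and GFP, and all were kept in high-glucose medium. The cells then received TNFalpha, an inflammatory cytokine, at 2 ng/mL for 2 hours, or the vehicle PBS, and each of the 6 groups was measured on 3 Affymetrix arrays. These are forced levels of each coactivator over whatever the cells make themselves. The sources used here do not give the promoter that drove them, nor the age and sex of the mice. Whether a group's 3 arrays stem from different cultures or mice is not in the labels. The p-values therefore measure only how these arrays spread, a spread that may be technical, and their number limits the precision.

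Acute phase genes are switched on in hepatocytes mainly by IL-6, which signals through its receptor Il6ra, the shared chain Il6st (gp130) and the transcription factor Stat3, and by IL-1 and TNF, which signal through NF-kB. Factors of the C/EBP family act with both. Proteins such as serum amyloid A, haptoglobin, fibrinogen and the pentraxins Crp and Apcs bind lipid, haemoglobin or microbes, or form clots, while complement proteins mark microbes and open pores in them. Albumin is the textbook protein that falls.

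The windows printed next are the 250 bases before the gene start of 6 genes on which the results turn, so that the motif content of genes moving in opposite directions can be seen side by side. They are RefSeq promoter sequences of GRCm38.p6, on the gene's own strand, and capitals mark matches on either strand to C/EBP (TTGCNNAA), STAT3 (TTCNNNGAA) or NF-kB (GGG, any 2 bases, then TTTCC). Saa1 lies at chr7:46742981-46743230 on the minus strand and Saa4, in the same cluster, at chr7:46732604-46732853 on the minus strand. Orm2 lies at chr4:63362199-63362448 on the plus strand, Fga at chr3:83025903-83026152 on the plus strand, Fgb at chr3:83049864-83050113 on the minus strand and Steap4 at chr5:7960222-7960471 on the plus strand.
Saa1: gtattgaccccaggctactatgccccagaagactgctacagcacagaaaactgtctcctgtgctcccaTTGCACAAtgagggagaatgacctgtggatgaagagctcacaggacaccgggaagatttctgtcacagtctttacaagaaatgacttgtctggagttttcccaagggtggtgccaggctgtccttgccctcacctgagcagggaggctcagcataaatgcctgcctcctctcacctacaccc
Orm2: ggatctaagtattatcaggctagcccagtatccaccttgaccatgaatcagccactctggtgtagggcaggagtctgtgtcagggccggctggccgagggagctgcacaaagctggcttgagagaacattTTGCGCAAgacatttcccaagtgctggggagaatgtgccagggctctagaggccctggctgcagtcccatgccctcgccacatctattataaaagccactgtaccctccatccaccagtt
Saa4: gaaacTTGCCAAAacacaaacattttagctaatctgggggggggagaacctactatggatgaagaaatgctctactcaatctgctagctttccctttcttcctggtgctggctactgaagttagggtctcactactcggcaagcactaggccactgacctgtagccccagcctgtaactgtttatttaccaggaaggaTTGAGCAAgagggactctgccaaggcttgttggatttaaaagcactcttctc
Fga: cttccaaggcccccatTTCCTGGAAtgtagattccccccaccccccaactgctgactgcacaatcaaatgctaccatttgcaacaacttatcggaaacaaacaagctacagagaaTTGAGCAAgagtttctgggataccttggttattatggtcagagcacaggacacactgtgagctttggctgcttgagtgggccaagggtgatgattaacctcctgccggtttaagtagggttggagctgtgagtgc
Fgb: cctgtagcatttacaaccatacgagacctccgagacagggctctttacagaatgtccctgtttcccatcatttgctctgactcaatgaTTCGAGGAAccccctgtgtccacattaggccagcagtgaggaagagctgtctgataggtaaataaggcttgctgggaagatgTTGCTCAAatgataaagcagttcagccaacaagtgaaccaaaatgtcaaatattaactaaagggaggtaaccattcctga
Steap4: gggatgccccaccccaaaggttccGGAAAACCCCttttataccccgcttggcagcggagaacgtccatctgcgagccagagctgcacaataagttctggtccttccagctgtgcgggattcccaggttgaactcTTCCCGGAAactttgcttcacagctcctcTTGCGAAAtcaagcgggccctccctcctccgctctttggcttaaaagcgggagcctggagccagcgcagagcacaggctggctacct
Saa1 and Orm2, whose levels were higher on the TNF arrays, and Saa4, Fga, Fgb and Steap4, whose levels were lower there in vector cells, all held at least 1 C/EBP match. In Fga and Fgb, 2 chains of the same protein that lie close together, a C/EBP match ended 128 and 73 bases before the start and a STAT3 match 226 and 154 bases before it. The window of the third chain, Fgg, which lies in the same cluster and was also lower on the TNF arrays, held none of the motifs. Nor did those of Crp and Lrg1, which were lower there in vector cells. The window of Apcs, which was higher, held a STAT3 match but no C/EBP match. Steap4 held a match to each of the 3 motifs. The Saa1 window precedes another of its listed starts than the one in the RefSeq gene table. The motif table covered 25 of the 29 measured genes. A C/EBP match was present in 11 of these 25 genes (44%), against 9.56% of all 32851 windows of the same length. For STAT3 the figures were 7 of 25 (28%) against 7.02%, for NF-kB 2 of 25 (8%, Serpina3n and Steap4) against 1.41%, and an HNF1 palindrome was in 0 of 25 and in 3 of all windows. A match is a run of letters and was not measured as a binding site.

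Levels are log2 values per array, and a difference between groups is given as a log2 difference ± its standard error from a linear model (limma) of all 18 arrays. A gene was called higher or lower at an adjusted p below 0.05 over all 15491 genes. Of the 148 calls between pairs of groups among these genes, 3 had arrays that overlapped. The share among all called genes was not counted, so a lack of overlap is a description and not a trait of these genes. The TNF and PBS arrays formed sets that stood apart: the median over all probe sets ran from 7.24 to 7.32 on the 9 PBS arrays and from 7.04 to 7.10 on the 9 TNF arrays. The SD over all probe sets differed too, at 2.06 to 2.14 on the PBS arrays and 2.24 to 2.32 on the TNF arrays. Treatment and array set cannot be told apart, so every TNF minus PBS difference holds both. Centring each array on its median moved the median of all genes in the TNF minus PBS comparisons from -0.04 to 0.18 with vector, from -0.04 to 0.19 with PGC-1a1 and from 0.02 to 0.21 with PGC-1a4, and small TNF minus PBS differences are to be read against that. It moved the split of all genes called higher and lower from 5377 and 5664 to 6870 and 4059 with vector, from 5353 and 5429 to 6906 and 3443 with PGC-1a1, from 5796 and 5083 to 7131 and 3648 with PGC-1a4, and from 12 and 20 to 30 and 13 for PGC-1a4 against vector under PBS. Quantile normalization moved it from 1220 and 637 to 1381 and 1121 for PGC-1a1 against vector under PBS, and from 1841 and 639 to 1294 and 922 for the PGC-1a4 interaction. Of 12 hepatocyte markers 7 were measured (Alb, Apoa1, Tdo2, Cyp2e1, Cyp3a11, Hnf4a, Asgr1), and none was below the lower quartile on every array. In bulk RNA, fewer cells of a type and less RNA per cell cannot be told apart.

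In vector cells the acute phase genes split on the TNF arrays. Of the 18 measured proteins of the rising group, 3 were higher and 14 lower than on the PBS arrays, and over all 29 genes 7 were higher and 19 lower. The 7, like the higher counts with the other viruses, include Il6st by its brightest probe set, although its other probe set went the other way. The share of all genes called was 34.7% higher and 36.6% lower, so the count of lower calls among the 29 (65.5%) is above the background and that of higher calls (24.1%) below it. The median difference was -1.45 over the 18 genes and -0.46 over the 29, against -0.04 over all genes. The direction of the 18-gene median was the same with quantile normalization (-1.65) and with median centring (-1.24).

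Saa1, a serum amyloid A apolipoprotein, was among the genes that were higher. Its levels were 10.73, 10.60 and 10.55 on the vector PBS arrays (replicates 1, 2 and 3) and 13.84, 13.78 and 13.62 on the vector TNF arrays. The groups did not overlap, and the log2 difference was 3.12 ± 0.15, or 8.69-fold (adjusted p = 5.67e-12). The probe set of Saa1 is of a type that can match other members of its family, so the reading may include Saa2. No probe set of Saa2 alone was in the part of the value table that was held. With PGC-1a1 the levels went from 11.09, 10.50 and 10.79 to 13.99, 13.82 and 13.78, and with PGC-1a4 from 10.79, 10.30 and 10.92 to 13.77, 13.86 and 13.85. The TNF minus PBS difference was 3.07 ± 0.15 with PGC-1a1 and 3.16 ± 0.15 with PGC-1a4, each within 1 standard error of the vector value. No comparison between viruses called Saa1.

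Orm2, an orosomucoid that binds drugs and lipids, behaved alike in vector cells. It read 9.08, 8.85 and 9.13 on the PBS arrays and 11.35, 11.44 and 11.43 on the TNF arrays, a difference of 2.39 ± 0.11 (5.23-fold). With PGC-1a4 it went from 8.77, 8.72 and 8.61 to 11.51, 11.47 and 11.88, with replicate 3 the highest, and the difference of 2.92 ± 0.11 was larger than with vector (interaction 0.54 ± 0.16, adjusted p = 0.0287). That interaction was not called without PGC-1a4 TNF replicate 3 (0.41), nor without any of 5 other arrays, nor with quantile normalization (0.53). With PGC-1a1 the difference was 2.43 ± 0.11.

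Apcs, the pentraxin serum amyloid P, also stood higher on the TNF arrays, and its difference depended on the virus. It read 10.68, 10.75 and 10.76 on the vector PBS arrays and 11.58, 11.57 and 11.36 on the vector TNF arrays. With PGC-1a1 it went from 10.16, 10.06 and 10.25 to 11.84, 11.94 and 12.14, and with PGC-1a4 from 10.95, 10.71 and 10.80 to 11.99, 12.07 and 12.20. The difference was 0.77 ± 0.10 in vector cells, 1.82 ± 0.10 in PGC-1a1 cells and 1.27 ± 0.10 in PGC-1a4 cells, and no TNF array of any virus was as low as a PBS array of any virus. The PGC-1a1 response exceeded that of vector by 1.04 ± 0.14 (adjusted p = 2.44e-05) and that of PGC-1a4 by 0.55 ± 0.14 (adjusted p = 0.00882). With PGC-1a1 the mean was below that with PGC-1a4 under PBS (10.16 and 10.82) and not above it under TNF (11.97 and 12.09).

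**Figure D1:**
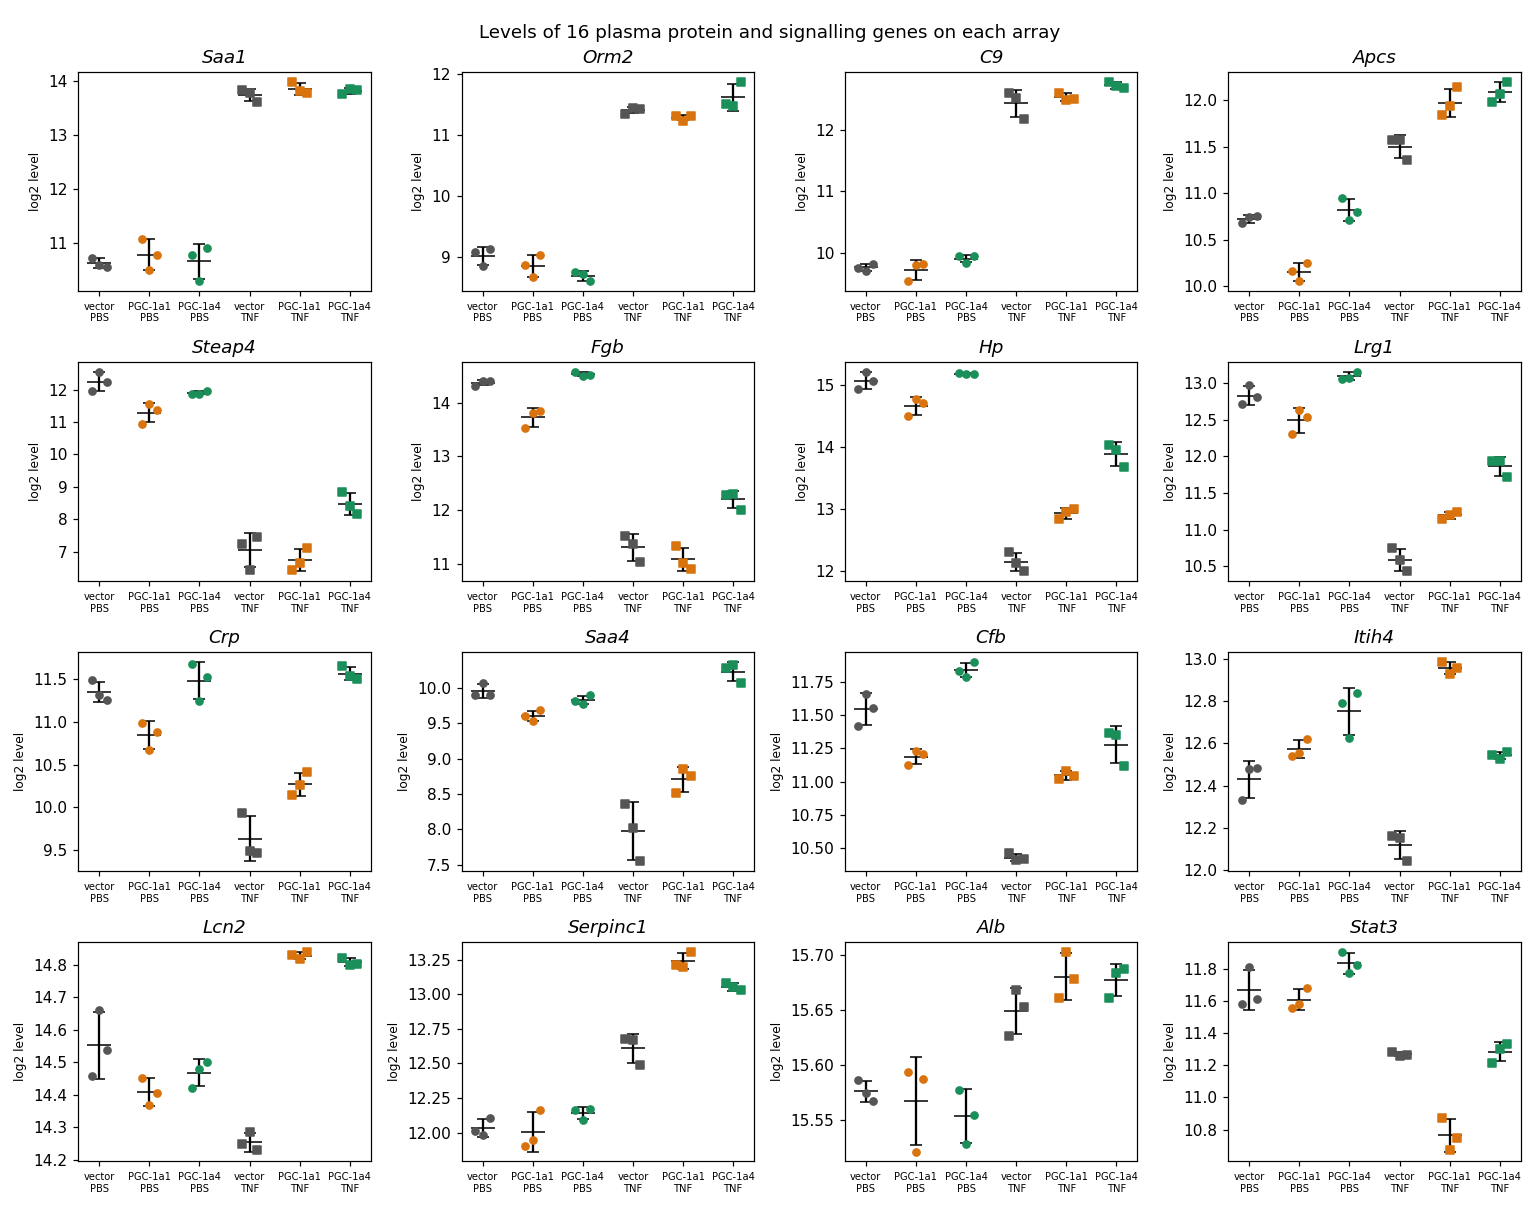
Log2 levels (y axis, a separate range per panel) of 16 genes by group (x axis, 6 groups); points are single arrays, circles PBS and squares TNF, with bars the mean ± SD of 3 arrays. Saa1, Orm2 and C9 stand higher on all TNF arrays, Steap4, Fgb and Hp lower, and Crp and Saa4 with PGC-1a4 under TNF stand at 11.57 and 10.22, near or above their PBS levels as deposited. With quantile normalization Crp was lower than under PBS there (-0.38) and Saa4 was not called (-0.08).

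The largest fall among the 29 genes on the vector TNF arrays was in Steap4, a membrane metalloreductase that handles iron and copper. Its levels were 11.95, 12.54 and 12.24 on the PBS arrays and 7.24, 6.44 and 7.45 on the TNF arrays, a difference of -5.20 ± 0.24, or 36.8-fold lower (adjusted p = 4.81e-12). With PGC-1a1 the levels went from 10.95, 11.54 and 11.38 to 6.44, 6.65 and 7.11 (-4.56 ± 0.24), and with PGC-1a4 from 11.87, 11.87 and 11.95 to 8.83, 8.41 and 8.16 (-3.43 ± 0.24). The TNF arrays with PGC-1a4 lay above all TNF arrays of the other viruses.

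The fibrinogen chains, which form the clot, fell as well. Fgb read 14.31, 14.40 and 14.40 on the vector PBS arrays and 11.52, 11.37 and 11.03 on the vector TNF arrays, a difference of -3.07 ± 0.13 (8.37-fold lower). Fga went from 13.24, 13.59 and 13.38 to 10.68, 10.66 and 9.90, where TNF replicate 3 was the lowest, a difference of -2.99 ± 0.18. Fgg fell less, from 13.30, 13.52 and 13.38 to 12.29, 12.13 and 11.82 (-1.32 ± 0.15). The 3 chains were lower on the TNF arrays with every virus, by differences from -3.07 to -0.94.

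Haptoglobin (Hp), which captures free haemoglobin, read 14.93, 15.21 and 15.06 on the PBS arrays of vector cells and 12.31, 12.13 and 12.01 on the TNF arrays (-2.91 ± 0.11, 7.54-fold lower, adjusted p = 3.98e-13). Lrg1, a secreted leucine-rich glycoprotein, read 12.71, 12.97 and 12.81 and 10.75, 10.58 and 10.44 (-2.24 ± 0.10). Neither gene's groups overlapped. Saa4, the constitutive serum amyloid A form, read 9.90, 10.07 and 9.90 on the vector PBS and 8.36, 8.02 and 7.55 on the vector TNF arrays (-1.98 ± 0.15). C-reactive protein (Crp), a pentraxin, read 11.49, 11.31 and 11.26 and 9.94, 9.49 and 9.47 (-1.72 ± 0.13, adjusted p = 3.07e-09). These 4 genes were lower on each vector TNF array than on any vector PBS array, and all 4 had higher TNF levels with either isoform than with vector, as described further on.

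The lipopolysaccharide carrier Lbp read 11.86, 11.85 and 11.86 on the vector PBS arrays and 10.24, 10.05 and 10.22 on the vector TNF arrays (-1.69 ± 0.11). The copper-carrying ferroxidase Cp went from 14.56, 14.63 and 14.63 to 13.05, 13.01 and 13.03 (-1.58 ± 0.10). The protease inhibitor Serpina3n varied more within its groups, 11.30, 10.59 and 10.90 and 10.19, 9.90 and 9.45, but they did not overlap (-1.08 ± 0.19, adjusted p = 8.22e-05). The haem carrier Hpx (-0.58 ± 0.06), the inhibitor chain Itih4 (-0.31 ± 0.08) and the siderophore-binding Lcn2 (-0.30 ± 0.07) fell by less, and of these Itih4 and Lcn2 were not called with median centring (-0.10 and -0.09). The iron hormone hepcidin (Hamp) was not called at -0.15 ± 0.26, and its sign turned with median centring (0.06).

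**Figure D2:**
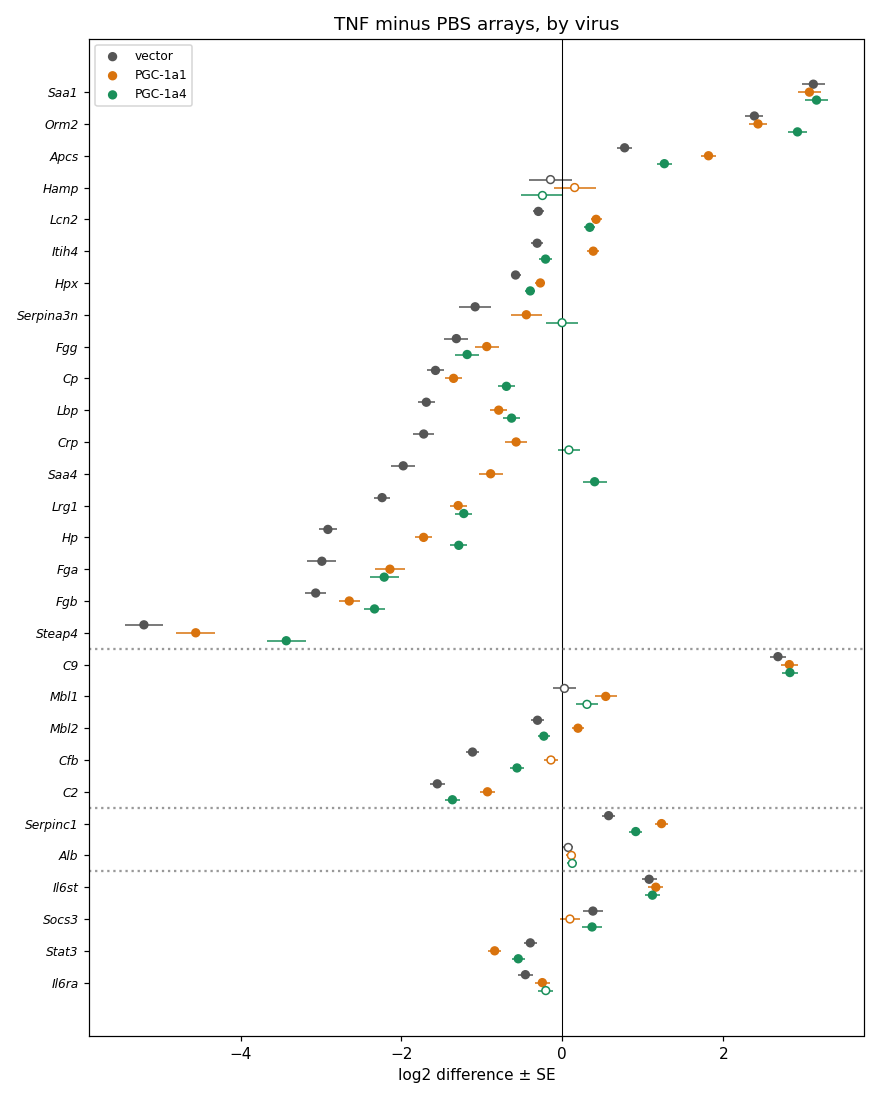
Log2 difference ± SE, TNF minus PBS arrays (x axis), of the 29 measured genes (y axis, ordered by the vector value within the rising group, complement, carriers and IL-6 signalling, which dotted lines part) for vector, PGC-1a1 and PGC-1a4; filled points passed an adjusted p of 0.05 in limma. Saa1, Orm2 and C9 lie to the right with every virus, while Steap4 runs from -5.20 with vector to -3.43 with PGC-1a4; Crp and Saa4 with PGC-1a4 and Mbl2 with PGC-1a1 turn sign with quantile normalization.

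Among the complement proteins C9, a pore-forming terminal component, stood apart. It read 9.76, 9.70 and 9.82 on the vector PBS arrays and 12.61, 12.52 and 12.19 on the vector TNF arrays, a difference of 2.68 ± 0.10 (6.41-fold, adjusted p = 5.61e-13), with 2.82 ± 0.10 for PGC-1a1 and 2.83 ± 0.10 for PGC-1a4. C2, a protease of the classical and lectin routes, went the other way, with 10.85 to 11.02 on the 3 vector PBS arrays and 9.37, 9.47 and 9.36 on the vector TNF arrays (-1.55 ± 0.09). Factor B (Cfb), the protease of the alternative route, went from 11.42, 11.66 and 11.56 to 10.46, 10.41 and 10.42 (-1.12 ± 0.08). Of the mannose-binding lectins, which recognise microbial sugars, Mbl2 was lower by a small difference (-0.31 ± 0.08, not called with median centring at -0.10), and Mbl1 was not called (0.03 ± 0.14). In all, 1 complement gene was higher and 3 were lower, with a median of -0.31.

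Neither of the 2 measured members of the group known to fall in inflammation was called lower. Albumin (Alb) ranged from 15.52 to 15.59 over the 9 PBS arrays and from 15.63 to 15.70 over the 9 TNF arrays, and its TNF minus PBS difference was 0.07 ± 0.06 in vector cells, 0.11 ± 0.06 in PGC-1a1 cells and 0.12 ± 0.06 in PGC-1a4 cells, with no call in any of the 12 comparisons. These levels are close to the highest value of each array. That value was 15.62 to 15.71 on the PBS arrays and 15.95 to 15.99 on the TNF arrays. The difference of Alb cannot be told apart from this shift between array sets. Antithrombin (Serpinc1), the main inhibitor of thrombin, rose from 12.01, 11.99 and 12.10 to 12.68, 12.67 and 12.48 with vector (0.58 ± 0.08, adjusted p = 7.34e-06). With PGC-1a1 it went from 11.90, 11.94 and 12.17 to 13.21, 13.20 and 13.30 (1.23 ± 0.08), more than with vector by 0.66 ± 0.12 (adjusted p = 0.000429). With PGC-1a4 it went from 12.16, 12.09 and 12.17 to 13.08, 13.05 and 13.03 (0.91 ± 0.08), an excess of 0.34 ± 0.12 that was not called (adjusted p = 0.0594). Setting the groups side by side, the median level of the 18 rising proteins ran from 12.14 to 12.51 on vector PBS arrays and from 11.19 to 11.44 on vector TNF arrays, while that of Alb and Serpinc1 ran from 13.78 to 13.84 and from 14.07 to 14.17. Across the vector arrays as deposited the first median was lower under TNF, and the second was higher. The second median was not computed with other scaling. With PGC-1a1 the first ran from 11.75 to 12.05 under PBS and from 11.22 to 11.32 under TNF, within the vector TNF range. With PGC-1a4 it ran from 12.25 to 12.39 under PBS and from 11.94 to 12.01 under TNF, above that range. The second ran from 13.73 to 13.88 and from 14.44 to 14.49 with PGC-1a1. With PGC-1a4 it ran from 13.81 to 13.87 and from 14.36 to 14.37.

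Of the IL-6 signalling genes on the vector TNF arrays, Socs3 was called higher and Stat3 and Il6ra lower, while the probe sets of Il6st disagreed. Socs3, the feedback inhibitor of the pathway, read 8.66, 8.71 and 8.73 and 8.93, 9.43 and 8.88 (0.38 ± 0.13, adjusted p = 0.0129). Vector TNF replicate 2 was the highest, and without it the call was lost (0.21). Stat3 went from 11.58, 11.81 and 11.61 to 11.28, 11.26 and 11.26 (-0.40 ± 0.08), a call lost with median centring (-0.19). The receptor Il6ra was 1.37-fold lower (-0.46 ± 0.09). Il6st was higher on its brightest probe set, from 9.62, 9.78 and 9.58 to 10.79, 10.56 and 10.86 (1.08 ± 0.09), but its other probe set went down (-1.36), so no direction is given for the gene.

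Over the PGC-1a1 cells, of the 29 genes 10 were higher and 15 lower on the TNF arrays (all genes: 34.6% and 35%), and over the PGC-1a4 cells 9 were higher and 14 lower (all genes: 37.4% and 32.8%). Of the 18 rising proteins 5 were higher and 12 lower with PGC-1a1 (median -0.68), and 5 and 10 with PGC-1a4 (median -0.32). The split between higher and lower calls depended on the scaling, among the 29 genes as among all genes. With median centring 12 of the 29 genes were higher and 12 lower with PGC-1a1 (all genes: 6906 and 3443). With PGC-1a4 the counts were 11 and 12 (all genes: 7131 and 3648), and the 18-gene median was -0.14. With quantile normalization they were 8 and 16 with PGC-1a1 (all genes: 4738 and 5118). For PGC-1a4 they were then 7 and 17 (all genes: 5018 and 5276). Lcn2 is one that changed side: it was higher on the TNF arrays with PGC-1a1 (0.42 ± 0.07) and with PGC-1a4 (0.34 ± 0.07), and lower with vector (-0.30 ± 0.07). Itih4 was higher with PGC-1a1 (0.38 ± 0.08, 0.06 and uncalled with quantile normalization) and lower with PGC-1a4 (-0.21 ± 0.08, -0.02 and uncalled with median centring). Hamp was not called with PGC-1a1 (0.15 ± 0.26), where its TNF arrays spread from 7.61 to 9.14, nor with PGC-1a4 (-0.25 ± 0.26). Crp, which fell with vector, was at 0.08 ± 0.13 with PGC-1a4 and uncalled (adjusted p = 0.599); with quantile normalization it was lower there (-0.38). Saa4 was slightly higher with PGC-1a4 (0.40 ± 0.15, adjusted p = 0.0226), and this sign turned with quantile normalization (-0.08) and with the mean of its 2 probe sets (-0.36). Among the complement genes with PGC-1a1, 3 were higher and 1 lower, with a median of 0.19 that turned to -0.16 with quantile normalization. Mbl1 was higher there (0.54 ± 0.14), and Mbl2 was too (0.19 ± 0.08), although Mbl2 turned sign with quantile normalization (-0.16).

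Without TNF, part of the acute phase genes stood lower with PGC-1a1. Against vector on the PBS arrays, 0 of the 29 genes were higher and 11 lower, beside 7.88% higher and 4.11% lower among all genes, and the median difference was -0.24 against -0.01. The 11 genes (37.9% of the 29) were 8 rising proteins and 3 complement proteins. Steap4 had the largest difference (-0.95 ± 0.24, adjusted p = 0.0128), and its 3 PGC-1a1 arrays lay below the 3 vector arrays. Lbp (-0.66 ± 0.11), Fgb (-0.65 ± 0.13) and Apcs (-0.57 ± 0.10) followed, with adjusted p of 0.000315, 0.00245 and 0.000554. For Lbp the vector PBS arrays read 11.86, 11.85 and 11.86 and the PGC-1a1 PBS arrays 11.20, 11.11 and 11.29. Those groups did not overlap, but the mean of the 2 Lbp probe sets, the second of them dim (mean level 7.78), was not called (-0.35).

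Of the 3 fibrinogen chains, Fgb and Fgg were called lower with PGC-1a1 on the PBS arrays. Fgb went from 14.31, 14.40 and 14.40 with vector to 13.53, 13.81 and 13.84, and Fgg from 13.30, 13.52 and 13.38 to 12.61, 13.07 and 12.95 (-0.53 ± 0.15, adjusted p = 0.0253). Fga, at 13.24, 13.59 and 13.38 and 12.70, 12.94 and 12.97, differed by as much as Fgg (-0.53 ± 0.18) and did not pass (adjusted p = 0.0686). Crp (-0.51 ± 0.13), Hp (-0.41 ± 0.11), Cfb (-0.36 ± 0.08), Lrg1 (-0.34 ± 0.10), C2 (-0.33 ± 0.09) and Mbl2 (-0.24 ± 0.08) were also lower. The count of 11 fell to 5 without vector PBS replicate 2, and to 7 without vector PBS replicate 3, without PGC-1a1 PBS replicate 1 or without PGC-1a1 PBS replicate 3. The calls of Lrg1 and Mbl2 were lost with median centring (-0.32 and -0.22) and on leaving out any of several arrays. Without vector PBS replicate 2 the calls of Steap4 (-0.80), Hp (-0.33), Fgg (-0.46) and C2 (-0.30) were lost too, and without PGC-1a1 PBS replicate 2 that of Crp was (-0.42). The IL-6 signalling genes and Alb and Serpinc1 were not called, with differences from -0.06 to 0.02. Cp was not called on its brightest probe set (-0.25). Other Cp probe sets were called lower (-0.43, -0.42, -0.45 and -0.67), and the dimmest were positive and uncalled (0.31 and 0.15).

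PGC-1a4 had no such effect on the PBS arrays that these data could call. Against vector, 0 of the 29 genes passed in limma, beside 0.0775% higher and 0.129% lower among all genes, and 5 had an unadjusted p under 0.05 (4 higher, 1 lower; 10.8% of all genes had one). The median difference was 0.11 against -0.02. Mbl2 came nearest (0.33 ± 0.08, adjusted p = 0.0817), at 12.56, 12.63 and 12.69 with vector and 12.90, 12.99 and 12.99 with PGC-1a4, which do not overlap. Itih4 (0.32 ± 0.08), Cfb (0.30 ± 0.08) and Lrg1 (0.26 ± 0.10) had positive differences, and Orm2 a negative one (-0.32 ± 0.11). Other moderation of the variances called 3 of the 29 genes, and median centring or leaving out dim genes called 1.

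The 2 isoforms therefore differed from each other on the PBS arrays, as tested directly. With PGC-1a1, 0 genes were higher and 12 lower than with PGC-1a4, beside 10.3% and 7.08% of all genes, with a median of -0.33 against 0.03. All 3 fibrinogen chains were among them: Fgb (-0.80 ± 0.13), Fga (-0.78 ± 0.18) and Fgg (-0.73 ± 0.15). Cfb read 11.12, 11.23 and 11.21 with PGC-1a1 and 11.83, 11.79 and 11.90 with PGC-1a4 (-0.65 ± 0.08, adjusted p = 2.23e-05). Apcs (-0.66 ± 0.10), Crp (-0.64 ± 0.13), Lrg1 (-0.60 ± 0.10), Lbp (-0.60 ± 0.11), Mbl2 (-0.57 ± 0.08), Hp (-0.52 ± 0.11), C2 (-0.48 ± 0.09) and Cp (-0.39 ± 0.10) made up the rest. No array of one isoform overlapped the other for any of these 12 genes.

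On the TNF arrays most acute phase genes stood higher in PGC-1a4 cells than in vector cells. Of the 29 genes 21 were higher and 0 lower with PGC-1a4 (72.4%), beside 21.1% and 12.3% of all genes, and the median difference was 0.43 against 0.01. With quantile normalization 18 were higher and 1, Socs3, was lower (-0.36). Of the 18 rising proteins 14 were higher (median 0.94) and of the 5 complement proteins all 5 (median 0.39). This comparison uses the same vector TNF arrays as the vector response, so the values of the 2 comparisons are given side by side and are not independent.

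Saa4 had the largest difference between PGC-1a4 and vector under TNF. It read 8.36, 8.02 and 7.55 with vector, 8.52, 8.85 and 8.76 with PGC-1a1 and 10.28, 10.32 and 10.07 with PGC-1a4, and the last exceeded vector by 2.25 ± 0.15 (4.74-fold, adjusted p = 2.07e-08). Crp read 9.94, 9.49 and 9.47 with vector, 10.14, 10.26 and 10.42 with PGC-1a1 and 11.66, 11.54 and 11.50 with PGC-1a4 (1.94 ± 0.13, 3.83-fold). Hp read 12.31, 12.13 and 12.01, 12.84, 12.95 and 13.01 and 14.04, 13.95 and 13.68 in the same order of groups (1.74 ± 0.11, 3.34-fold). In each of these genes the 3 groups did not overlap, with vector lowest, PGC-1a1 between and PGC-1a4 highest.

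Steap4 was higher with PGC-1a4 (1.42 ± 0.24) but not with PGC-1a1 (-0.31 ± 0.24, adjusted p = 0.331). Lrg1 read 10.75, 10.58 and 10.44 with vector and 11.94, 11.94 and 11.72 with PGC-1a4 (1.28 ± 0.10), and Serpina3n 10.19, 9.90 and 9.45 and 10.89, 11.11 and 11.18 (1.22 ± 0.19). Cp read 13.05, 13.01 and 13.03 with vector, 12.74, 13.08 and 13.20 with PGC-1a1 and 14.18, 14.08 and 13.90 with PGC-1a4, whose arrays lay above the others (1.03 ± 0.10, adjusted p = 1.41e-06). Lbp (1.00 ± 0.11), Fga (1.02 ± 0.18) and Fgb (0.89 ± 0.13) were higher as well, while Fgg was not called (0.34 ± 0.15, adjusted p = 0.0895). Apcs (0.58 ± 0.10), Lcn2 (0.55 ± 0.07), Itih4 (0.43 ± 0.08) and Hpx (0.20 ± 0.06) were higher by less. Not called were Saa1 (0.08 ± 0.15), Orm2 (0.21 ± 0.11) and Hamp (-0.40 ± 0.26). Saa1 and Orm2 are 2 of the 3 rising proteins that were higher on the vector TNF arrays, and the third, Apcs, was called here.

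Of the complement genes with PGC-1a4 under TNF, Cfb had the largest difference (0.85 ± 0.08, adjusted p = 9.39e-07), from 10.46, 10.41 and 10.42 with vector to 11.37, 11.35 and 11.12. Mbl2 (0.41 ± 0.08), Mbl1 (0.39 ± 0.14), C2 (0.34 ± 0.09) and C9 (0.29 ± 0.10) were also called. The calls of C9 and Mbl1 were narrow (adjusted p = 0.0366 and 0.04) and were lost without vector TNF replicate 3 (0.17 and 0.29), among other arrays. With quantile normalization C2 and Mbl1 were not called (0.16 and 0.23). Serpinc1 was higher (0.45 ± 0.08), and Alb was not called (0.03 ± 0.06). Of the signalling genes Il6ra was called (0.25 ± 0.09, adjusted p = 0.0457; not with quantile normalization, 0.13), while Stat3 (0.02 ± 0.08), Socs3 (-0.24 ± 0.13) and Il6st (-0.09 ± 0.09) were not.

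**Figure D3:**
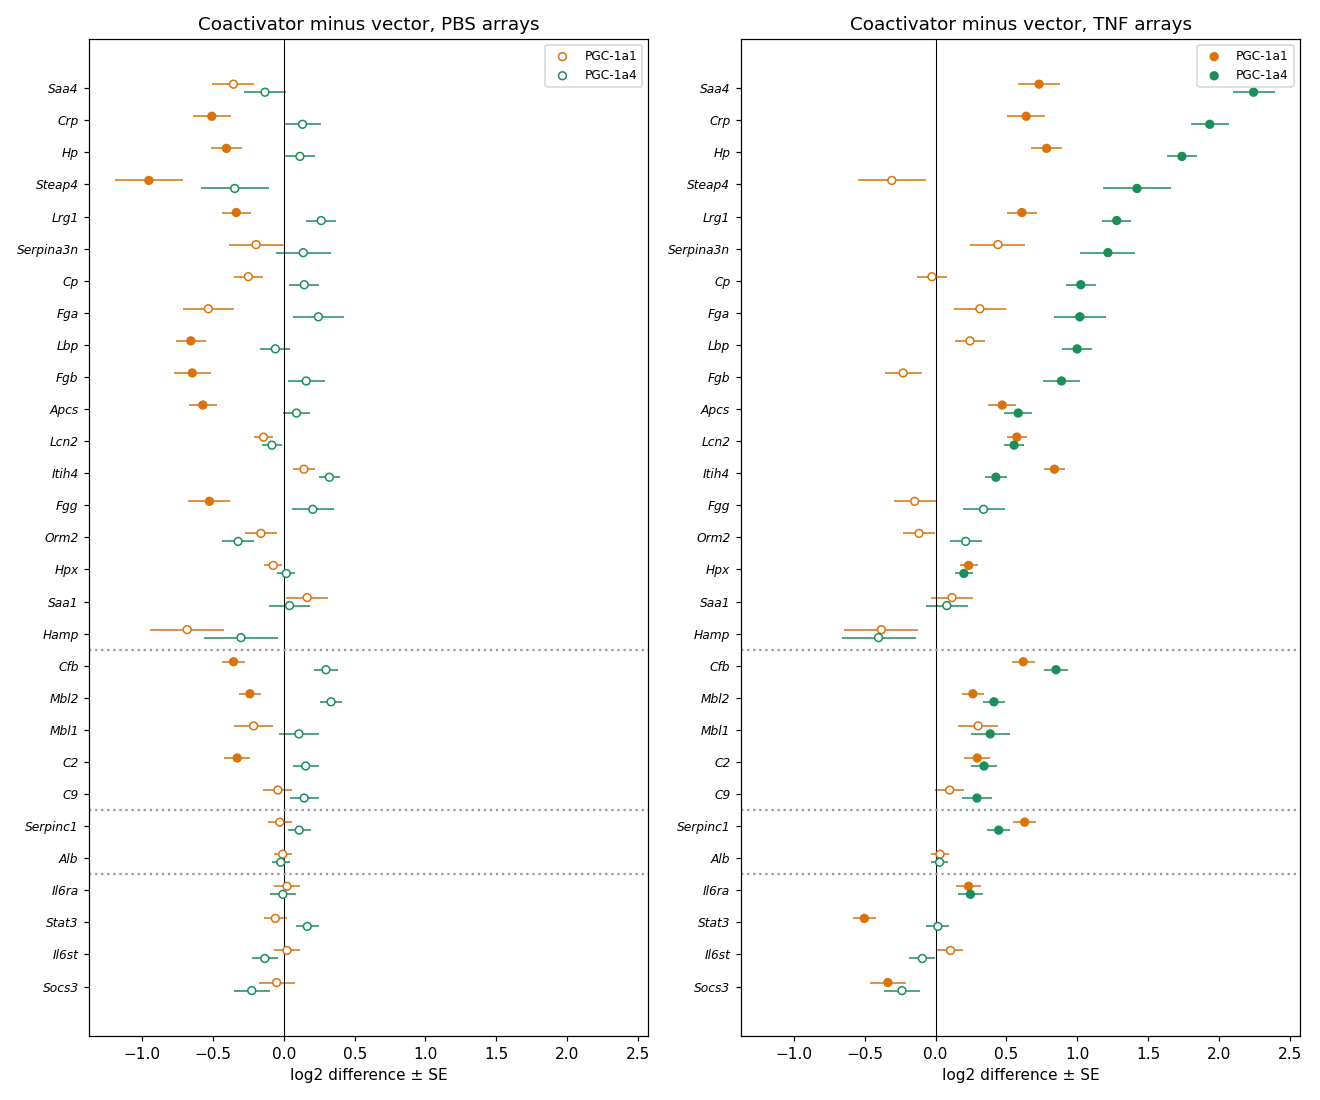
Log2 difference ± SE from vector (x axis) of the 29 measured genes (y axis, ordered by the PGC-1a4 value under TNF within the 4 roles, which dotted lines part) on the PBS arrays (left) and the TNF arrays (right); filled points passed an adjusted p of 0.05 in limma. On the left 11 PGC-1a1 points are filled, all below 0, and no PGC-1a4 point; on the right 21 PGC-1a4 points are filled, all above 0, led by Saa4 at 2.25.

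PGC-1a1 also gave higher levels than vector on the TNF arrays, in fewer of these genes. Of the 29 genes 13 were higher and 2 lower, beside 20.8% and 20.5% of all genes, with a median of 0.24 against -0.03. Itih4, an inter-alpha-trypsin inhibitor chain, led with 12.16, 12.15 and 12.04 on vector arrays and 12.99, 12.93 and 12.96 on PGC-1a1 arrays (0.84 ± 0.08, adjusted p = 6.71e-08). Hp (0.78 ± 0.11), Saa4 (0.73 ± 0.15), Crp (0.64 ± 0.13), Serpinc1 (0.63 ± 0.08), Cfb (0.62 ± 0.08), Lrg1 (0.61 ± 0.10) and Lcn2 (0.57 ± 0.07) followed. Lcn2 was tight within groups, at 14.25, 14.29 and 14.23 with vector and 14.83, 14.82 and 14.84 with PGC-1a1, near the top of the scale. Apcs (0.47 ± 0.10), C2 (0.29 ± 0.09), Mbl2 (0.26 ± 0.08), Hpx (0.23 ± 0.06) and Il6ra (0.23 ± 0.09) made up the 13. The Il6ra arrays overlapped between groups, and with quantile normalization neither Il6ra (0.18) nor C2 (0.17) was called.

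Stat3 was lower with PGC-1a1 than with vector on the TNF arrays, at 11.28, 11.26 and 11.26 with vector and 10.87, 10.67 and 10.75 with PGC-1a1 (-0.50 ± 0.08, adjusted p = 6.53e-05). Its other probe set, which was dimmer (mean level 7.08 against 11.40), did not show this (0.09). Socs3 was lower too (-0.34 ± 0.13, adjusted p = 0.0419), with overlapping arrays, and without vector TNF replicate 2 the difference was -0.16 and uncalled. Among the fibrinogen chains none was called (Fga 0.31 ± 0.18, Fgb -0.23 ± 0.13, Fgg -0.15 ± 0.15).

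Compared directly on the TNF arrays, PGC-1a1 gave lower levels than PGC-1a4 in 14 of the 29 genes and a higher level in 1, beside 21.3% lower and 15.2% higher among all genes, with a median of -0.19 against -0.02. Steap4 (-1.73 ± 0.24), Saa4 (-1.52 ± 0.15), Crp (-1.30 ± 0.13), Fgb (-1.12 ± 0.13) and Cp (-1.05 ± 0.10) differed most, the Steap4 levels being 6.44, 6.65 and 7.11 with PGC-1a1 and 8.83, 8.41 and 8.16 with PGC-1a4. Hp (-0.96 ± 0.11), Serpina3n (-0.78 ± 0.19), Lbp (-0.76 ± 0.11), Fga (-0.71 ± 0.18), Lrg1 (-0.67 ± 0.10), Stat3 (-0.52 ± 0.08), Fgg (-0.49 ± 0.15), Orm2 (-0.33 ± 0.11) and Cfb (-0.23 ± 0.08) were the others that were lower. Of these the call of Stat3 did not hold for its probe sets averaged (-0.14), and those of Fgg (-0.43) and Cfb (-0.19) without PGC-1a4 TNF replicate 1, and that of Orm2 without PGC-1a4 TNF replicate 3 (-0.20). Itih4 was the gene that was higher with PGC-1a1 (0.41 ± 0.08, adjusted p = 0.000283). Of the complement genes other than Cfb none was called, with differences from -0.19 to -0.05.

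The difference between the responses was tested as an interaction, in which a shift common to all TNF arrays cancels. The PGC-1a1 response exceeded that of vector in 14 genes and fell short in 1, beside 13.4% and 12% of all genes, with a median of 0.51 against -0.01. The PGC-1a4 response exceeded that of vector in 14 and fell short in 0, beside 11.9% and 4.12% of all genes, with a median of 0.34 against 0.05. Positive values mean either a smaller fall or a larger rise on the TNF arrays, and can come from a lower PBS level as well as a higher TNF level. Both interactions use the vector arrays and so are not independent.

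For Hp the response was -2.91 ± 0.11 in vector cells, -1.72 ± 0.11 in PGC-1a1 cells and -1.29 ± 0.11 in PGC-1a4 cells, and the interactions were 1.19 ± 0.15 and 1.63 ± 0.15 (adjusted p = 1.87e-05 and 7.2e-06). For Crp they were 1.15 ± 0.19 and 1.80 ± 0.19, and for Saa4 1.09 ± 0.21 and 2.38 ± 0.21. Lrg1 (0.95 ± 0.15 and 1.02 ± 0.15) and Lbp (0.90 ± 0.15 and 1.06 ± 0.15) had interactions with both isoforms. With PGC-1a1, Lbp was below vector under PBS (-0.66) and was not called against vector under TNF (0.24). For Steap4 only the PGC-1a4 interaction passed (1.77 ± 0.34, adjusted p = 0.00188, against 0.64 ± 0.34 with PGC-1a1), and the 2 differed from each other (-1.13 ± 0.34, PGC-1a1 minus PGC-1a4, adjusted p = 0.0266). That last call was lost with quantile normalization (-0.91) and on leaving out any of 7 arrays, PGC-1a4 TNF replicate 1 moving it most (-0.94).

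The 2 isoforms differed in their responses in both directions, with 5 genes where the PGC-1a1 response was higher and 5 where it was lower, beside 7.18% and 12.6% of all genes. Lower were Saa4 (-1.29 ± 0.21), Steap4, Cp (-0.66 ± 0.15), Crp (-0.66 ± 0.19) and Orm2 (-0.49 ± 0.16). Higher were Itih4 (0.59 ± 0.11), Apcs (0.55 ± 0.14) and 3 complement genes, C2 (0.44 ± 0.13), Cfb (0.42 ± 0.12) and Mbl2 (0.42 ± 0.11). On the PBS arrays these 3 complement genes had stood lower with PGC-1a1 than in PGC-1a4 cells (Cfb 11.19 ± 0.06 against 11.84 ± 0.05 with PGC-1a4, SD, n = 3). The count of 10 fell to 6 without PGC-1a1 TNF replicate 1.

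Several genes had more than 1 probe set, and for some of them the reading depended on which was used. The copper carrier Cp had 7: on the TNF arrays of vector cells 5 read lower, from -4.25 to -1.58, and 2 read higher (0.44 and 0.92). The 2 were the dimmest, with mean levels of 6.82 and 7.29, against 9.42 to 13.97 for the 5. For Saa4 the brightest gave -1.98 and the other -3.16 with vector, and 0.40 and -1.12 with PGC-1a4, while PGC-1a4 minus vector under TNF was 2.25 and 1.91. The comparison between viruses was thus the same on both, and the TNF minus PBS difference with PGC-1a4 was not. For Lbp the values were -1.69 and -0.43 with vector (mean levels 11.10 and 7.78), and for C2 -1.55 and -1.05.

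**Figure D4:**
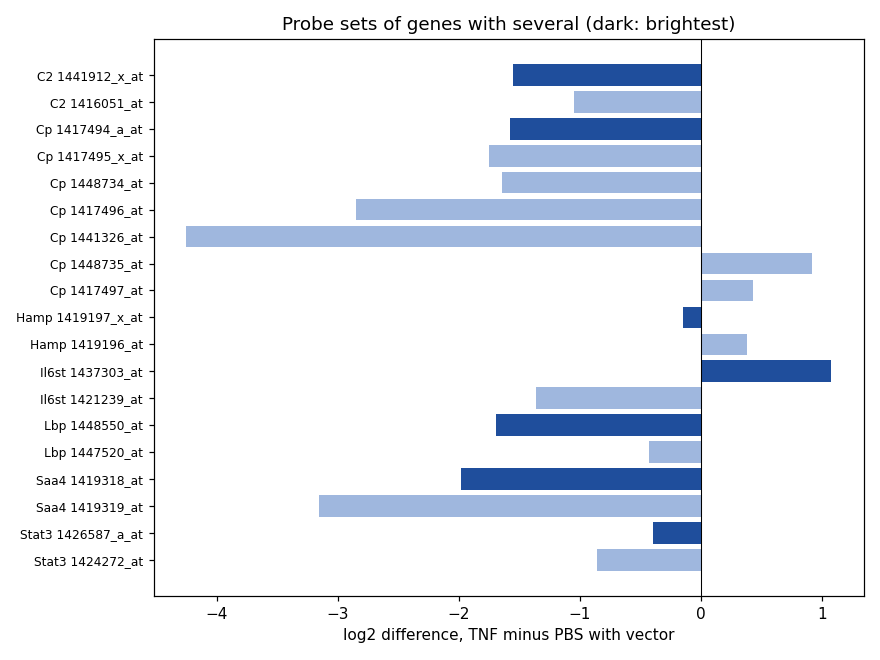
Log2 difference, TNF minus PBS arrays with vector (x axis), of each probe set (y axis) of the 7 genes that had several; the darker bar of each gene is the brightest probe set, which represents the gene. The probe sets of Il6st point in opposite directions (1.08 and -1.36), as do those of Cp (from -4.25 to 0.92) and Hamp, of which neither was called.

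Of 48 listed regulators of acute phase transcription 39 were measured. On the vector TNF arrays 16 were higher (41%) and 15 lower (38.5%) than on PBS arrays, close to the 34.7% and 36.6% of all genes. With PGC-1a4 against vector under TNF 20 were higher and 0 lower (51.3%, against 21.1% of all genes), with a median of 0.28. Hnf4a, the nuclear receptor that maintains hepatocyte gene expression, read 11.77 ± 0.07 on vector PBS and 8.99 ± 0.23 on vector TNF arrays (SD, n = 3; -2.78 ± 0.10). It was higher under TNF with PGC-1a1 (2.24 ± 0.10) and with PGC-1a4 (1.70 ± 0.10) than with vector. The haemojuvelin gene Hjv, a coreceptor in hepcidin control, gave -2.96 ± 0.25, 2.30 ± 0.25 and 1.97 ± 0.25 in the same comparisons, beside an uncalled Hamp. Cebpa, a C/EBP factor, fell in vector cells (-2.01 ± 0.12) and was higher with PGC-1a4 under TNF (0.59 ± 0.12) but not called with PGC-1a1 (-0.08 ± 0.12), and Cebpd was lower with PGC-1a1 (-0.83 ± 0.15) and higher with PGC-1a4 (0.48 ± 0.15).

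Plasma proteins of the liver outside the 38 genes were also counted. Of 72 listed, 57 were measured. With PGC-1a1 against vector on PBS arrays 2 were higher and 22 lower (38.6%, median -0.24), beside 7.88% and 4.11% of all genes. With PGC-1a4 against vector under TNF 43 were higher (75.4%) and 2 lower, with a median of 0.44, beside 21.1% and 12.3% of all genes. The PGC-1a1 response exceeded that of vector in 39 (68.4%, against 13.4% of all genes) and the PGC-1a4 response in 21 (36.8%, against 11.9%). Serpina10, which inhibits factor Xa, fell in vector cells (-3.04 ± 0.15) and was higher with PGC-1a4 under TNF (1.69 ± 0.15), while F10, which encodes factor X, was higher with PGC-1a1 under TNF (2.18 ± 0.15).

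Markers of hepatocytes and of other liver cells also differed between the TNF and PBS arrays and between the TNF groups. From the vector PBS to the vector TNF arrays, the summed linear level of the 7 of 8 measured endothelial markers went from 1392 to 1443 up to 2615 to 2913. That of the 5 of 12 Kupffer cell and macrophage markers went from 1825 to 2498 up to 3245 to 3560, and that of the 7 of 12 hepatocyte markers from 79535 to 83298 up to 86789 to 93897. The sums of the 4 of 5 cholangiocyte markers went from 1941 to 2059 down to 969 to 1212, and those of the 7 of 8 stellate and fibroblast markers from 2550 to 2728 down to 1817 to 2223. The 4 of 5 neutrophil markers (503 to 580, then 301 to 403) and the 3 of 5 lymphocyte markers (755 to 825, then 531 to 605) also summed to less. Such sums follow the brightest markers, and most lists held calls in both directions. The median level of the hepatocyte markers went from 11.72 to 11.84 up to 12.87 to 13.54 in vector cells. Single hepatocyte markers differed between TNF and PBS arrays by -2.78 to 4.35 with vector. The range was -0.87 to 4.18 with PGC-1a1 and -1.37 to 4.65 with PGC-1a4. On the vector TNF arrays 3 endothelial markers were called higher and 1 lower, and 4 and 0 Kupffer cell and macrophage markers. The counts were 2 and 2 for hepatocytes, 2 and 1 for cholangiocytes (median difference 0.40) and 2 and 3 for stellate cells and fibroblasts. They were 0 and 1 for neutrophils and 1 and 2 for lymphocytes, beside 34.7% and 36.6% of all genes. Between the TNF groups the hepatocyte sum was 97822 to 100405 with PGC-1a1 and 103327 to 107933 with PGC-1a4, both above vector. Alb and Hnf4a are in that list. The Kupffer cell and macrophage sum was 2626 to 2806 with PGC-1a1 and 3823 to 4001 with PGC-1a4, below and above vector. With PGC-1a4, however, 1 of the 5 markers was called higher than with vector and 2 lower (median difference -0.21). Of all genes 21.1% were higher and 12.3% lower in that comparison. The endothelial sum was 1622 to 1806 and 1810 to 1881, and the stellate and fibroblast sum 1284 to 1371 and 1356 to 1395, with PGC-1a1 and PGC-1a4 both below vector. The cholangiocyte sum was 604 to 671 with PGC-1a1, below vector, and 995 to 1106 with PGC-1a4, within the vector range. The endothelial marker Tek and the lymphocyte marker Cd3g were below the lower quartile on every array. The part of other cell types in the differences of the acute phase genes was not tested.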

How the data were processed

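RNA of mouse primary hepatocytes was measured on 18 Affymetrix arrays, 6 groups of 3. The authors deposited log2 expression values per probe set, made with RMA and affy per the submitters' processing notes, so background correction, normalization and summary were done before deposit (versions not given in the sources used here). The values run from 3.37 to 15.99. Only part of the table was held, since its last row was cut short, and that 1 of 33246 rows was dropped. Of the probe sets 25951 named 1 gene, 686 several and 6608 none, and the brightest of a gene's own stood for it, giving 15491 genes. Symbols were updated by identifier with RefSeq (GRCm38.p6).

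With limma 3.58.1 (R 4.3.3), 1 mean was fitted for each group over all arrays, with 12 comparisons, 3 of them interactions. The Benjamini-Hochberg adjustment ran over all 15491 genes, with a threshold of 0.05, and the fit was tested on simulated data. Every listed gene with a probe set of its own was reported, and genes of the other lists were counted, with examples named only where past the threshold in a comparison described. The genes and lists were chosen with earlier results of these data known. Same-numbered replicates did not pair. Alternatives were quantile normalization, median centring, the mean of probe sets, leaving out dim genes, other moderation, the compared arrays alone, a block and leaving out each array.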

Additional observations from a re-analysis of the deposited data

Results flagged for a closer look

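For 20 of the 29 genes the TNF minus PBS difference itself differed between viruses in limma's interaction test, in 39 tests with an adjusted p below 0.05 over all genes. Of all genes 13.4% were called higher and 12% lower for PGC-1a1 against vector, and 11.9% and 4.12% for PGC-1a4 against vector. For PGC-1a1 against PGC-1a4 the shares were 7.18% and 12.6%. The share of all genes called in any of these interactions was not counted. A positive value means that the first-named virus had the higher response, which can also come from a lower PBS level. The tests share arrays and so are not independent.

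Among the rising group, Crp differed by 1.15 between PGC-1a1 and vector, by 1.80 between PGC-1a4 and vector and by -0.66 between PGC-1a1 and PGC-1a4. Saa4 differed by 1.09, 2.38 and -1.29 in the same order, and Apcs by 1.04, 0.49 and 0.55. Against vector, PGC-1a1 and PGC-1a4 differed by 1.19 and 1.63 for Hp, 0.95 and 1.02 for Lrg1, 0.90 and 1.06 for Lbp, 0.85 and 0.77 for Fga, and 0.72 and 0.64 for Lcn2. PGC-1a1 differed from vector by 0.31 for Hpx and by 0.70 for Itih4, whose response also exceeded that with PGC-1a4 by 0.59. PGC-1a4 differed from vector by 0.73 for Fgb, 1.08 for Serpina3n, 0.54 for Orm2, 0.88 for Cp and 1.77 for Steap4. PGC-1a1 minus PGC-1a4 was -0.49 for Orm2, -0.66 for Cp and -1.13 for Steap4.

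Among the complement genes, Cfb differed by 0.97 between PGC-1a1 and vector, 0.55 between PGC-1a4 and vector and 0.42 between PGC-1a1 and PGC-1a4. C2 differed by 0.62 between PGC-1a1 and vector and 0.44 between PGC-1a1 and PGC-1a4, and Mbl2 by 0.50 and 0.42. Serpinc1 differed by 0.66 between PGC-1a1 and vector. Stat3 was the gene with a negative value against vector, -0.44 with PGC-1a1, and the mean of its probe sets gave -0.11, which was not called. The Fga value for PGC-1a4 was the narrowest (adjusted p = 0.0492) and was 0.52 and uncalled without vector TNF replicate 3. That call was also lost with quantile normalization (0.74), median centring (0.75), other moderation and the compared arrays alone. Leaving out any of several other arrays lost it too.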

How the results depend on the processing

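Of 348 results (29 genes in 12 comparisons), 319 to 340 were kept under each alternative other than leaving out an array, which kept 6051 of 6264. Kept means the same side of the threshold, with no turn of sign where either result was called. An uncalled result whose sign turned counts as kept. PGC-1a4 minus vector under PBS called 0 genes, 3 with trend and robust moderation, and 1 with median centring or without dim genes. Leaving out each array gave 5 to 12 calls for PGC-1a1 minus vector under PBS (11 with all arrays), 6 to 11 for the PGC-1a1 minus PGC-1a4 interaction (10 with all), and 0 throughout for PGC-1a4 minus vector under PBS. Quantile normalization turned the TNF minus PBS sign of Crp (-0.38) and Saa4 (-0.084) with PGC-1a4 and of Mbl2 (-0.16) with PGC-1a1. The mean of probe sets turned Saa4 (-0.36) and Lbp (0.038) with PGC-1a4, and Il6st with vector (-0.14), PGC-1a1 (-0.18) and PGC-1a4 (-0.13), whose probe sets disagree. For Hamp, PGC-1a1 minus PGC-1a4 under TNF ran from -0.44 to 0.33 when single arrays were left out, the lowest without PGC-1a1 TNF replicate 1. The cause was not tested for the others. A replicate block gave 9 calls in place of 11 for PGC-1a1 minus vector under PBS and 20 in place of 21 for PGC-1a4 minus vector under TNF. Same-numbered arrays correlated at -0.135 to 0.227, so the numbers were not taken as pairs.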

Other observations

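Receptors of other cytokines that act through Stat3 were among the listed regulators. The leukemia inhibitory factor receptor Lifr was higher with PGC-1a1 than with vector on the PBS arrays (1.43 ± 0.15, adjusted p = 3.95e-06, limma) and on the TNF arrays (1.24 ± 0.15), and in vector cells it was higher on the TNF than on the PBS arrays (1.93 ± 0.15). The oncostatin M receptor Osmr was higher with PGC-1a4 than with vector on the TNF arrays (1.29 ± 0.16, adjusted p = 1.13e-05), and with PGC-1a1 it was at 0.09 ± 0.16 (adjusted p = 0.703). The IL-22 receptor Il22ra1 was higher with PGC-1a4 (1.43 ± 0.15) and with PGC-1a1 (0.57 ± 0.15, adjusted p = 0.00427). Irf1, an interferon-response factor, was higher with PGC-1a4 under TNF (1.04 ± 0.10).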
